A study of Saccharomyces cerevisiae with 14 samples.

Results

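Described here are the 2 opposite ends of the main axis of variation among the RNASeq libraries of the chaperone-enriched yeast strains (ChES), 4 libraries at each end, which together are 8 of the 11 libraries in the table and of the 14 samples in the labels. The members were selected on their expression values. One end holds oe LHS1 r2, oe LHS1 r3, the library labelled oe SSC1 r2, and oe TCP1 r3 (r stands for replicate). The other holds the library labelled oe SSC1 r3, oe EGD2 r1, oe EGD2 r2 and oe TCP1 r2, and each set of 4 values below keeps these orders. They had been named growth-like and starvation-like, but since that description held for some gene groups and not for others, they are called the HSP12-low end and the HSP12-high end here, after a stress gene that separates them. Because expression chose the libraries, a difference between the ends is a description, and no test was made of it.

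The strains were bought derivatives of Y258, itself derived from S288C, each carrying a URA3-marked plasmid for 1 chaperone. The chaperones are Lhs1, an Hsp70-type protein of the endoplasmic reticulum, Ssc1, the Hsp70 of the mitochondrial matrix, Egd2, which belongs to the nascent polypeptide-associated complex (NAC), and Tcp1, a subunit of the cytosolic chaperonin. The labels give exponential cultures in -URA medium with 2% glucose at 30 °C, whereas the methods also describe induction in galactose and cells taken after the diauxic shift, so the growth phase of each library cannot be settled from these sources. The empty vector control libraries, 3 in the labels, are not analysed here, and the libraries oe LHS1 r1, oe TCP1 r1 and the library labelled oe SSC1 r1 lie between the ends.

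Budding yeast adjusts a large share of its transcriptome to nutrient supply. When glucose and nitrogen are plentiful, TOR and protein kinase A signalling favours ribosome production, which needs ribosomal RNA and protein, RNA polymerases I and III and a large set of assembly factors. When nutrients run short, the transcription factors Msn2 and Msn4 turn on a general stress programme with trehalose and glycogen metabolism, antioxidant enzymes and alternative carbon use, while Hsf1 controls chaperone genes in response to misfolded protein.

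Values are reads per gene divided by a library size factor (normalised counts). Of 7122 genes in the table, 6592 had a mean of at least 5 over the 11 libraries and were compared. Differences are those of the mean log2(normalised count + 1), HSP12-low minus HSP12-high, which understates changes of genes with few reads. Depth was 10127206 to 13172452 reads at the HSP12-low end, 14879137 to 20286329 at the HSP12-high end, and 13991742 to 18154378 in the libraries between them. The depths of the ends did not overlap, and their part in the differences was not tested. Replicates were separate cultures, according to the methods. A bulk sample averages over cells, so that fewer cells in a given state and less RNA per cell cannot be told apart.

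The first principal component held 57.2% of the variance of the 6592 genes, and the second held 19.0%. Scores on the first component were 61.9, 61.2, 45.4 and 33.2 in the HSP12-low libraries against -44.7, -24.6, -58.2 and -51.4 in the HSP12-high libraries. The members just inside the ends scored 33.2 (oe TCP1 r3) and -24.6 (oe EGD2 r1), while the libraries just outside scored -2.75, -9.31 and -10.7 (the library labelled oe SSC1 r1, oe TCP1 r1 and oe LHS1 r1). The second component set apart the HSP12-low libraries from each other, with 35.5 for the library labelled oe SSC1 r2 and -59.7 for oe TCP1 r3. Thus the HSP12-low end was less uniform than its name implies, apart from oe LHS1 r2 and r3, which resembled each other closely. Their mean squared deviation was 12.7 times that of counting noise, against 342 to 903 times for the other pairs of libraries within a strain. They were kept as separate samples.

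**Figure D1:**
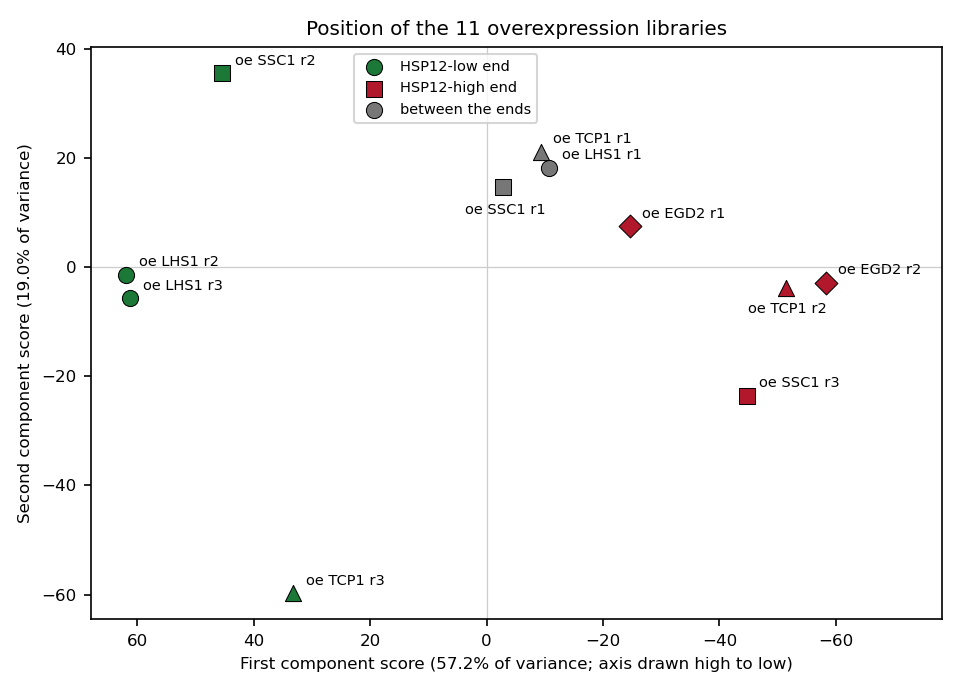
Scores of the 11 libraries on the first component (horizontal, drawn high to low, 57.2% of variance) and second component (vertical, 19.0%); colour gives the end and symbol shape the strain. The HSP12-low libraries lie on the left at 33.2 to 61.9 and the HSP12-high libraries on the right at -24.6 to -58.2, with oe SSC1 r2 and oe TCP1 r3 far apart on the second component.

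Position along the axis did not separate the strains beyond the spread within them. The strains' scores gave an F of 1.57 and an exact two-sided permutation p of 0.279 over 92400 assignments of the labels (n = 11 libraries), and 9 of the 11 libraries had their nearest neighbour in another strain. For instance, oe EGD2 r2 and oe TCP1 r2 differed by an SD of 0.33 across genes (log2), while oe EGD2 r1 and r2 differed by 0.74. In limma's F test among the strains, 3 of 6592 genes (0.0455%) passed an adjusted p of 0.05, namely LHS1 (adjusted p = 0.00139), TCP1 (adjusted p = 0.00139) and HIP1 (adjusted p = 0.0023). An unadjusted p under 0.05 was found for 37 genes, a smaller share than the 0.05 that evenly spread p-values would give. The test was thus cautious in these libraries, and so few calls do not show that the strains were alike.

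The plasmid genes served as a check of the labels. LHS1 had 56679, 60337 and 23647 normalised counts in oe LHS1 r2, r3 and r1, against 1344 to 2211 in the other strains' libraries. TCP1 had 26906, 47002 and 22042 in oe TCP1 r3, r2 and r1, and no more than 2577 elsewhere. EGD2 was at 24039 and 17746 in oe EGD2, and between 6127 and 16374 in the other strains, so its excess was small. SSC1 had 82518 in the library labelled oe SSC1 r2, but 11336 in r3 and 30045 in r1, which lay within the 14940 to 32390 of the other strains or below it. HIP1, a histidine permease gene, was instead high in each library labelled oe SSC1, at 46307 (r2), 27237 (r3) and 31571 (r1), against 1564 to 3620 in the other strains. LHS1, TCP1 and HIP1 thus followed the strain labels and not the ends, and no direction between the ends is drawn from the SSC1 label.

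Across the ends, 1088 genes (16.5%) had all HSP12-low libraries above all HSP12-high libraries, and 1131 (17.2%) had all of them below. These shares are the background for the count of each list that follows. With a mean difference of at least 2-fold as well, 595 genes (9.03%) were higher and 582 (8.83%) lower at the HSP12-low end. The median gene differed by 0.03 on the log2 scale. The libraries that the rule left out fell between the ends for these genes. On a scale where 0 is the mean of the HSP12-high end and 1 that of the HSP12-low end, the medians over the 595 higher genes were 0.38 in oe LHS1 r1, 0.48 in the library labelled oe SSC1 r1 and 0.41 in oe TCP1 r1. Over the 582 lower genes they were 0.36, 0.43 and 0.33, so all 3 lay nearer to the HSP12-high end.

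Among the 37 gene lists, general stress and glycogen genes had the largest median differences. Of 56 genes of the general stress response, 41 had all HSP12-low libraries below (background 17.2%) and 1 above (background 16.5%), and the list's median was -2.63, against 0.03 over all genes. HSP12, a membrane-stabilising stress protein gene (chromosome VI, 107256 to 107585), had 1225, 1155, 3768 and 1233 normalised counts in the HSP12-low libraries, against 33497, 36780, 69217 and 70965 in the HSP12-high libraries. The groups did not overlap, the library labelled oe SSC1 r2 was the highest of its end, and oe EGD2 r2 and oe TCP1 r2 were the highest of theirs. The difference was -4.95 (SD 0.82 and 0.58, n = 4 each). In the libraries between the ends HSP12 stood at 19097 in oe LHS1 r1, 23544 in the library labelled oe SSC1 r1 and 34242 in oe TCP1 r1, the last above the lowest HSP12-high library.

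Trehalose protects protein and membrane in stressed cells, and glycogen is the main store of glucose. For glycogen, 12 of 15 genes had all HSP12-low libraries below and none above, with a median of -2.67, and for trehalose these counts were 6 and 0 of 7, with a median of -2.15. GPH1, glycogen phosphorylase, had 883, 919, 2077 and 410 normalised counts in HSP12-low libraries against 10818, 8549, 31292 and 28067 in HSP12-high libraries. Hence the highest HSP12-low library was well under the lowest HSP12-high library, and oe TCP1 r3 was the lowest of all. TPS1, trehalose-6-phosphate synthase, had 5882, 5379, 10316 and 3251 against 23492, 33749, 44205 and 38201, again without overlap. Its difference was -2.58 (SD 0.68 and 0.39, n = 4 each). The branching enzyme gene GLC3 and the trehalose synthase subunit gene TSL1 differed by -3.62 and -2.86, although for TSL1 the library labelled oe SSC1 r2 (15735) nearly reached r3 (17527).

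The antioxidant genes had 16 of 25 with all HSP12-low libraries below, none above, and a median of -0.92. CTT1, cytosolic catalase, had 676, 645, 1086 and 395 normalised counts against 6456, 14007, 17575 and 19133 in HSP12-high libraries. TSA2, a peroxiredoxin gene, had 183, 154, 323 and 214 against 1722, 1313, 2175 and 2169. Of the core autophagy genes, 11 of 22 lay below, 2 lay above and the median was -0.99. ATG8, whose product coats the autophagosome, had 248, 281, 642 and 225 against 1594, 1018, 1486 and 1446. Each of these genes kept the HSP12-low libraries apart from the HSP12-high libraries.

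The stress response element (STRE, AGGGG), bound by Msn2 and Msn4, was looked for on both strands of the 500 bases before the start codon of 5824 protein-coding genes, a sequence feature that the choice of libraries did not use. It was present before 67.3% of the 554 genes that were at least 2-fold lower without overlap, before 23.6% of the 420 that were higher, and before 34.4% of all promoters. Of the 479 genes with 2 or more matches, 45.1% had all HSP12-low libraries below (17.2% over all genes) and their median difference was -0.66. HSP12 has 5 matches, and 2 of them fall into the window shown here to place the element beside the gene with the most negative difference, which spans 300 to 101 bases before its start codon (R64, VI:106956-107155, plus strand, matches in capitals):
HSP12: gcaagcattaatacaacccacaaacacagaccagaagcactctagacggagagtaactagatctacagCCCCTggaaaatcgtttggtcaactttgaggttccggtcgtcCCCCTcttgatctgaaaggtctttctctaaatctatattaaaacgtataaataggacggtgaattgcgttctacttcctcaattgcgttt

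**Figure D2:**
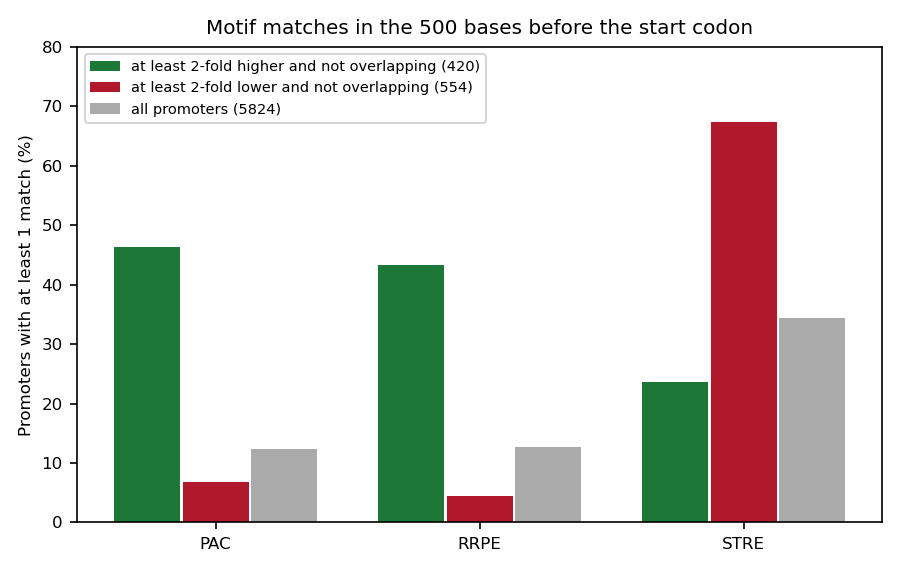
Percent of promoters (500 bases before the start codon) with at least 1 match to the PAC, RRPE or STRE motif, for genes at least 2-fold higher at the HSP12-low end without overlap (green, 420), at least 2-fold lower (red, 554) and all 5824 promoters (grey). PAC and RRPE were found before 46.4% and 43.3% of the higher genes, and STRE before 67.3% of the lower genes.

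Genes of several carbon pathways were lower at the HSP12-low end, among them part of the glycolytic genes. Of 17 glycolytic genes, 8 had all HSP12-low libraries below and 1 above, and the median was -0.75. TDH1, the glyceraldehyde-3-phosphate dehydrogenase isozyme, had 2092, 1901, 4748 and 1579 normalised counts, against 39340, 22657, 69442 and 50204 in the HSP12-high libraries. The difference was -4.17 (SD 0.70 and 0.68, n = 4 each), and the libraries between the ends lay at 3564 to 8144, close to the HSP12-low end. HXK1, a hexokinase gene repressed by glucose, had 2754, 2690, 14264 and 651 against 38869, 38985, 116407 and 92820, and ENO1, an enolase gene, differed by -2.55. The members named here are among those with the largest differences. The list's median rested in part on the library labelled oe SSC1 r2, without which it was -0.40. Within oe SSC1 (r2 minus r3) the median was -1.45, whereas within oe TCP1 (r3 minus r2) it was 0.061, with 9 of 17 genes higher.

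Genes for gluconeogenesis, the glyoxylate cycle and C2 use had a median of -1.32, with 6 of 22 below (27.3%, background 17.2%) and 1 above. This direction was not shared by the library labelled oe SSC1 r2, which stood above r3 in 15 of 22 genes with a median of 0.38, whereas oe TCP1 r3 minus r2 had a median of -2.81. The members named here are those with the largest differences. ALD4, mitochondrial aldehyde dehydrogenase, had 1793, 1552, 4925 and 1278 normalised counts, against 11708, 24446, 29182 and 33454. YAT2 and CAT2, carnitine acetyltransferase genes, differed by -3.03 and -3.35. SUC2, the invertase gene that glucose represses, had 1091, 1147, 4572 and 1060 against 19330, 13714, 77524 and 83045 in HSP12-high libraries. None of these genes overlapped between the ends. The carbon source response element (CSRE-type) was found before 59.1% of the 22 genes and before 7.21% of all promoters, which describes the list and not the libraries. Of the 554 genes at least 2-fold lower without overlap it preceded 10.3%, and of the 420 higher genes 6.67%.

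Some hexose transporter genes kept the ends apart, in opposite directions, while most members overlapped. HXT3, a low-affinity carrier used at high glucose, had 23542, 24053, 24704 and 33897 normalised counts, against 5055, 16258, 8414 and 10973 in the HSP12-high libraries. MIG2, a repressor gene induced by glucose, had 2317, 2270, 3675 and 2356 against 659, 1551, 849 and 921. HXT6, a high-affinity carrier gene, had 118, 121, 380 and 36 against 1269, 658, 7392 and 4639, and reads of the nearly identical HXT7 may have been divided between these genes. These 3 genes did not overlap between the ends, and HXT7 did not either, with 305 to 3379 normalised counts at the HSP12-low end and 4053 to 13424 at the HSP12-high end. Of the low-affinity and glucose-sensing genes, 4 of 10 lay above and 1 below, with a median of 0.54. Of the high-affinity and starvation carriers 3 of 11 (27.3%, background 17.2%) lay below and none above, and the median was -0.29. Their direction turned between the strains with a library at each end, since within oe SSC1 (r2 minus r3) 8 of 11 were higher with a median of 1.36, and within oe TCP1 (r3 minus r2) the median was -1.84.

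Mitochondrial energy genes were lower at the HSP12-low end for the TCA cycle but largely overlapped for the respiratory chain. For pyruvate dehydrogenase and the TCA cycle, 12 of 23 genes had all HSP12-low libraries below and 1 above (median -0.68). CIT1, mitochondrial citrate synthase, had 4771, 4807, 4573 and 3511 normalised counts against 12404, 11247, 20744 and 18756. For the nuclear-encoded respiratory chain, 6 of 26 (23.1%, background 17.2%) lay below and 1 above (median -0.43). Those that differed most include COX5B, the hypoxic isoform of a cytochrome oxidase subunit (-2.63), and COX26, a supercomplex-associated protein gene, with 133, 103, 145 and 52 against 462, 1664, 5210 and 2681. For ATP synthase, 2 of 17 genes (11.8%) lay below and none above. For peroxisomal fatty acid oxidation 4 of 18 (22.2%) lay below and none above.

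Sulfur and iron genes were lower at the HSP12-low end. Of 23 genes of sulfate assimilation and methionine synthesis, 17 had all HSP12-low libraries below and none above, with a median of -1.43. MET6, methionine synthase, had 1247, 1216, 3186 and 1688 normalised counts against 44652, 21481, 22463 and 22845, a difference of -3.97 (SD 0.65 and 0.50, n = 4 each). MET17, which makes homocysteine from sulfide, had 1208, 1152, 2430 and 1163 against 15088, 13041, 8677 and 7150, and SAM2, an S-adenosylmethionine synthetase gene, differed by -3.59. The libraries of each gene were well apart between the ends.

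Of 21 genes of the iron regulon, which cells with too little iron induce through Aft1, 12 had all HSP12-low libraries below and none above (median -1.43). FIT2, a cell wall mannoprotein gene of siderophore retention, had 290, 295, 334 and 202 normalised counts against 4429, 5666, 5329 and 6297. The difference was -4.28 (SD 0.31 and 0.21, n = 4 each), and the choice of libraries by expression bears on both the difference and the spread. The libraries between the ends were at 636 (oe LHS1 r1), 1062 (the library labelled oe SSC1 r1) and 3256 (oe TCP1 r1). FIT3, a further mannoprotein gene of this kind, differed by -2.60, and ENB1, an enterobactin transporter gene, by -1.88.

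The promoters of the sulfur and iron genes carried the motifs of their own regulators more often than promoters in general. These shares describe the lists and say nothing of the libraries. Among the 554 genes at least 2-fold lower without overlap, the E-box of Cbf1 preceded 8.12% and the Aft1-type motif 5.23%. Among the 420 higher genes the shares were 2.86% and 1.43%. The E-box of Cbf1 (CACGTG) was found before 69.6% of the 23 sulfur genes and 6.20% of all 5824 promoters, and the Aft1-type motif (TGCACCC) before 76.2% of the 21 iron genes and 2.37% of all promoters, on either strand. The windows of MET17 (R64, XII:732242-732441, plus strand) and FIT2 (XV:1059231-1059430, plus strand) are shown because both genes separate the ends and differ in motif, with the matches in capitals:
MET17: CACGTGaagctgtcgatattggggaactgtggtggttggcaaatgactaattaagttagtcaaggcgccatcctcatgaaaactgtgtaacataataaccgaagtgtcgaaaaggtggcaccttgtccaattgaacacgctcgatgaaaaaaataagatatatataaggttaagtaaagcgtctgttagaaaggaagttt
FIT2: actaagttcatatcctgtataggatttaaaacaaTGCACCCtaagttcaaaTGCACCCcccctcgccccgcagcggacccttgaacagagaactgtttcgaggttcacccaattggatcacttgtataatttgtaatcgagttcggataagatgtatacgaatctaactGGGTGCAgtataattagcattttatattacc

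Genes of ribosome production formed the largest group that was higher at the HSP12-low end. Of 138 ribosome biogenesis factors, 119 had all HSP12-low libraries above (background 16.5%) and none below, and the median was 1.48, or 2.80-fold. RRP12, which takes part in export of both ribosomal subunits (chromosome XVI, 529723 to 533409), had 4846, 5348, 4095 and 9717 normalised counts, against 1411, 1954, 944 and 1436 in the HSP12-high libraries. oe TCP1 r3 was the highest and oe EGD2 r2 the lowest, and the libraries between the ends were at 2185 to 2707. The difference was 2.03 (SD 0.54 and 0.43, n = 4 each).

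DHR2, an RNA helicase gene of small subunit assembly, had 1217, 1191, 1182 and 2196 normalised counts against 211, 329, 205 and 336, and differed by 2.40. REA1, the dynein-like ATPase of large subunit maturation, had 10917, 11383, 13286 and 9173 against 1355, 3709, 2889 and 3825. DBP2, a helicase gene of RNA processing, had 10924, 10138, 6456 and 23510 against 1250, 5267, 1315 and 2926. In all 3 genes the ends were apart, and for DBP2 the gap was narrow, between the library labelled oe SSC1 r2 and oe EGD2 r1. For RNA polymerases I and III, 20 of 39 genes lay above and 1 below (median 0.77), among them the largest polymerase I subunit RPA190, with 5210, 5940, 5534 and 7470 against 2216, 1836, 2034 and 2312.

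The PAC motif (GATGAGNT) and the ribosomal RNA processing element RRPE (AAAATTTT) mark promoters of ribosome biogenesis genes. PAC was found before 46.4% of the 420 genes that were at least 2-fold higher without overlap, before 6.86% of the 554 lower genes and before 12.3% of all promoters, and RRPE before 43.3%, 4.51% and 12.7% of them. Of the 233 genes with both motifs, 59.7% had all HSP12-low libraries above (16.5% over all genes) and their median difference was 1.098. With PAC alone the median was 0.17 over 485 genes, and with RRPE alone 0.31 over 505 genes. RRP12 carries both, and its window is shown for their spacing, with 2 RRPE matches upstream of 2 overlapping PAC matches that read on the opposite strand (R64, XVI:529423-529622, plus strand, matches in capitals):
RRP12: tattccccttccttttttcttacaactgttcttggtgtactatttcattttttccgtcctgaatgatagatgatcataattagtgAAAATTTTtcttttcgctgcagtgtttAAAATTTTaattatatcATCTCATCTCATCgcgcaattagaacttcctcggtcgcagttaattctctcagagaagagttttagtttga

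Ribosomal protein genes did not follow the assembly factors in the library labelled oe SSC1 r2. Of 137 cytosolic ribosomal protein genes, 4 had all HSP12-low libraries above (background 16.5%) and none below, and the list's median was 0.72. RPL31B, a large subunit protein gene, had 10452, 11340, 4431 and 13829 normalised counts against 3056, 4540, 2699 and 2929. RPS26B, a small subunit protein gene, had 13807, 14293, 4043 and 18933 against 3954, 5948, 3382 and 3767. In both genes 3 HSP12-low libraries exceeded every HSP12-high library, whereas the library labelled oe SSC1 r2 fell among the HSP12-high libraries. Without that library the list's median was 1.103, and without oe TCP1 r3 it was 0.50. Ribosomal protein genes occur largely as near-identical pairs, so reads may have been divided between copies. The PAC motif preceded 10.2% of these genes and RRPE 12.4%, near the 12.3% and 12.7% of all promoters.

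**Figure D3:**
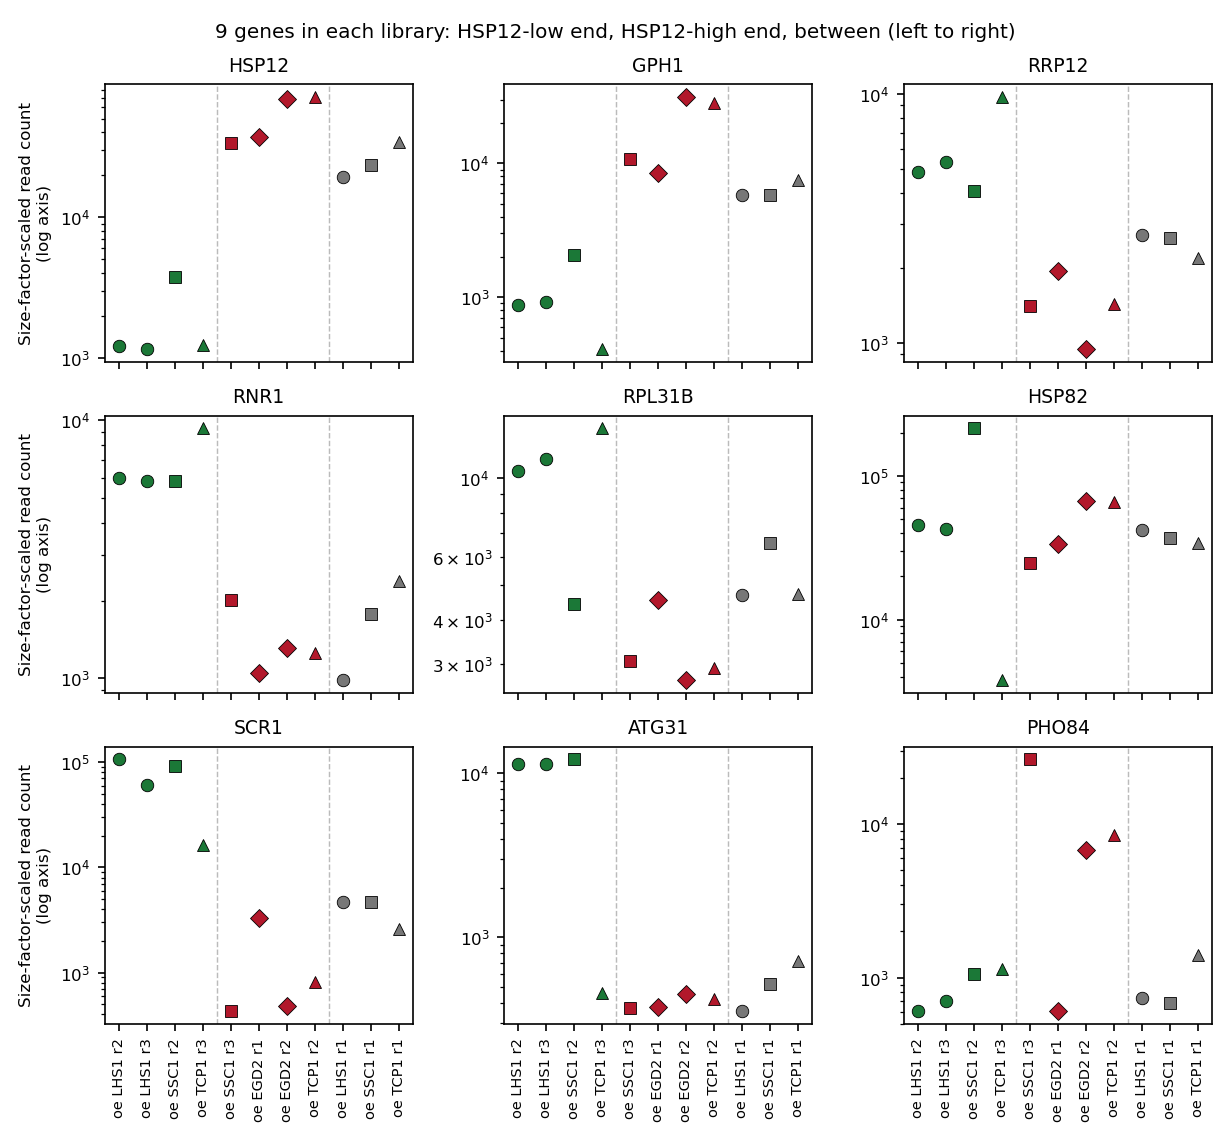
Normalised counts (vertical, log axis) of 9 genes in each of the 11 libraries (horizontal; HSP12-low end left, HSP12-high end middle, libraries between the ends right; colour gives the end, symbol the strain). HSP12 and GPH1 are lower and RRP12 and RNR1 higher in each of the 4 HSP12-low libraries, whereas RPL31B (oe SSC1 r2), ATG31 (oe TCP1 r3) and HSP82 (both) set single libraries of this end apart.

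Translation factor genes were higher in 15 of 40 cases without overlap and lower in 2 (median 0.83). SUP35, the release factor gene, had 9992, 10387, 17606 and 9782 normalised counts against 4485, 5712, 3564 and 3969, while HEF3, the second elongation factor 3 gene, was lower, with 364, 380, 651 and 267 against 1230, 810, 1344 and 1700. Of 20 tRNA synthetase genes, 5 (25%, background 16.5%) lay above and none below.

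Genes of the G1/S transition and DNA replication were higher at the HSP12-low end, with 22 of 35 above, none below and a median of 0.78. RNR1, the large subunit of ribonucleotide reductase, had 5975, 5796, 5824 and 9312 normalised counts against 2006, 1047, 1313 and 1250. POL1, the catalytic subunit of DNA polymerase alpha, had 1345, 1396, 1854 and 1481 against 548, 495, 431 and 449. CLB6, an S-phase cyclin gene, had 310, 308, 403 and 430 against 88, 93, 104 and 79. These 3 genes showed no overlap (SD within an end 0.16 to 0.40 on the log2 scale), and in oe LHS1 r1 RNR1 was at 984, below the HSP12-high libraries. For mitotic cyclins and M/G1 genes 5 of 24 (20.8%, background 16.5%) lay above and none below. CLB2, the main mitotic cyclin gene, overlapped, because oe EGD2 r1 (1549) reached the HSP12-low libraries (1207 to 1799).

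The 2 labels oe SSC1 and oe TCP1 have a library at each end, so the ends can be set against each other within a strain, with 1 pair of libraries per strain and therefore no replicate error. Across genes the difference within oe SSC1 (r2 minus r3) and within oe TCP1 (r3 minus r2) had a Pearson r of 0.38 over 6592 genes, which are not independent replicates, and 62.3% of genes had the same sign. Both pairs were placed by the choice of the ends, so that a shared direction is in part fixed by it. At least 2-fold, 428 genes were higher in both pairs, 403 lower in both, 136 were higher within oe SSC1 and lower within oe TCP1, and 19 the reverse. Ribosome biogenesis factors had medians of 0.93 within oe SSC1 and 1.95 within oe TCP1, sulfur genes -1.13 and -1.15, iron genes -1.06 and -1.38, and general stress genes -1.05 and -4.01. Ribosomal protein genes had -0.53 within oe SSC1 and 1.54 within oe TCP1, so that the direction of this list differed between the pairs.

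**Figure D4:**
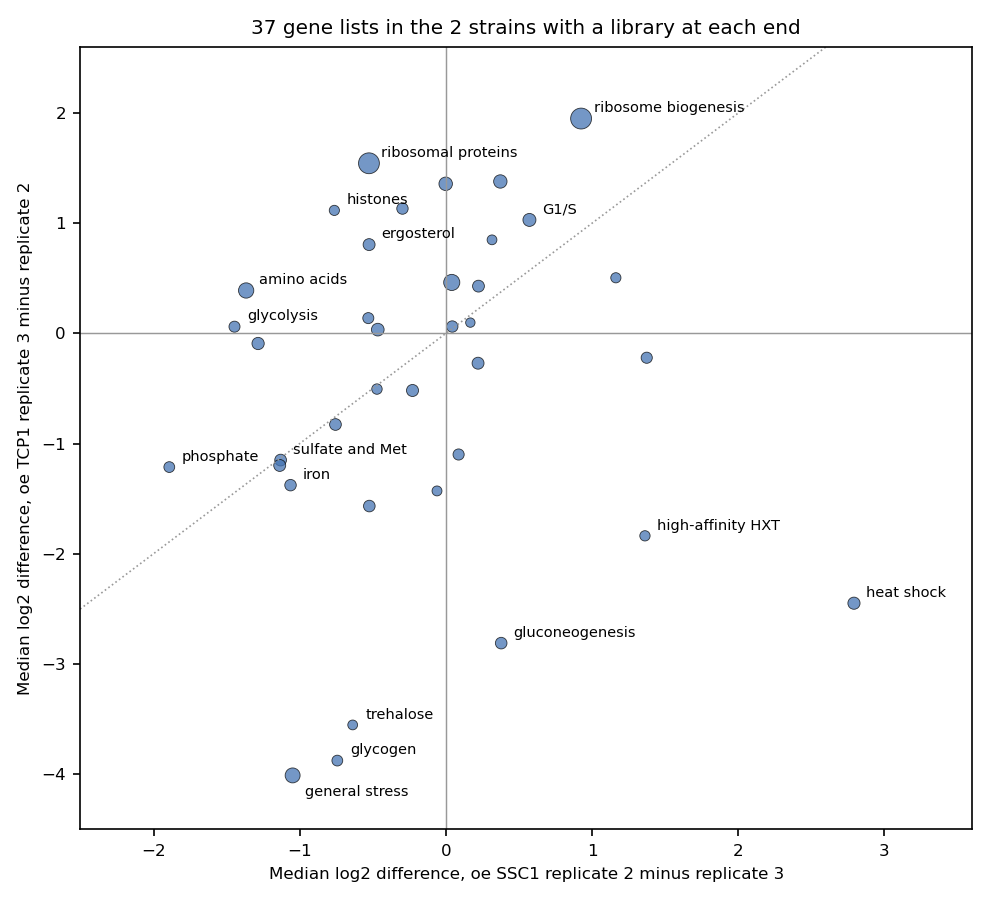
Median log2 difference of each of the 37 gene lists within oe SSC1 (horizontal, r2 minus r3) and within oe TCP1 (vertical, r3 minus r2), 1 library pair per strain; point area grows with the number of genes and the dotted line marks equal values. Ribosome biogenesis lies in the upper right, general stress, glycogen, sulfur and iron genes in the lower left, and heat shock genes stand alone at 2.79 and -2.45.

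Chaperone genes of the heat shock response split the HSP12-low end. Of 27 such genes, 1 had all HSP12-low libraries above and 1 below, and the list's median was -0.01, -0.55 without the library labelled oe SSC1 r2 and 0.66 without oe TCP1 r3. Relative to each gene's mean over the 11 libraries, the list's median was -0.02, -0.01, 1.84 and -2.20 in the HSP12-low libraries, against -0.65, -0.09, 0.29 and 0.29 in the HSP12-high libraries. Thus the highest and the lowest library for these genes were at the same end. Within oe SSC1 25 of 27 genes were higher and the median was 2.79, and within oe TCP1 26 of 27 were lower and the median was -2.45.

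HSP82, the inducible Hsp90 gene, had 45730, 42363, 214688 and 3780 normalised counts in the HSP12-low libraries, against 24761, 33625, 67166 and 65589 in the HSP12-high libraries. SSA4, an inducible Hsp70 gene, had 72500, 63004, 318510 and 3635 against 9398, 52099, 19676 and 19861, and oe TCP1 r1, between the ends, reached 132729. BTN2, which sorts misfolded protein, had 49287, 48763, 194626 and 2584 against 4131, 31194, 22120 and 26946. The library labelled oe SSC1 r2 was the highest and oe TCP1 r3 the lowest of the 11 for HSP82 and BTN2. The small heat shock protein gene HSP42 had 124960 in the library labelled oe SSC1 r2 and 1845 in oe TCP1 r3, and between 12583 and 65405 in the other libraries, and APJ1, a J-protein gene, had 32528 and 1162 in these libraries and between 2956 and 14916 in the rest.

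YDJ1, the main cytosolic J-protein gene, was the list member that kept the ends apart in the upward direction, with 15149, 13321, 38040 and 10356 normalised counts against 7213, 7090, 8643 and 7604. The heat shock element (HSE, here GAA, TTC and GAA with 2 bases between each) was found before 59.3% of the 27 genes and 1.49% of all promoters, and of the 87 promoters with a match 12.6% of genes had all HSP12-low libraries above and 14.9% below, near the backgrounds of 16.5% and 17.2%. STRE was found before 40.7% of the 27 genes, beside 34.4% of all promoters. The window of HSP42 (R64, IV:806321-806520, plus strand) is shown for comparison with HSP12, since its HSE belongs to the group that split the HSP12-low end. The window also holds STRE matches (AGGGG), which are left in small letters. The 2 overlapping HSE matches are in capitals:
HSP42: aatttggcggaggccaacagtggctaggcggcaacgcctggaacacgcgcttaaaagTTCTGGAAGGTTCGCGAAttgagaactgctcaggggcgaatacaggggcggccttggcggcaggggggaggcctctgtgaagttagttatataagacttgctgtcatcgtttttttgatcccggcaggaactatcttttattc

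For core histone genes, expressed in S phase, the library labelled oe SSC1 r2 stood apart from the other HSP12-low libraries, while oe TCP1 r3 lay with oe LHS1 r2 and r3. None of 10 separated the ends, and their median relative to the mean over libraries was 0.56, 0.44, -1.36 and 0.83 against -0.42, 0.38, -0.39 and -0.34. HTB2, a histone H2B gene, had 8004, 8604, 1876 and 9445 normalised counts against 3143, 5037, 2061 and 2503, so that the library labelled oe SSC1 r2 was below every HSP12-high library.

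The HSP12-high end was not uniform either. In oe EGD2 r1 several biosynthetic and phosphate genes stood near the HSP12-low libraries, although of those named in this paragraph only PHO84 overlapped between the ends. PHO84, the high-affinity phosphate transporter gene, had 609, 708, 1053 and 1131 normalised counts in HSP12-low libraries, against 26550, 602, 6813 and 8559 in HSP12-high libraries. SER3, of serine synthesis, had 1686, 1579, 2542 and 2559 against 35154, 3914, 27632 and 15342, and ADE17, of purine synthesis, had 1365, 1436, 1524 and 1540 against 21317, 1807, 9609 and 9652. GCV1, of the glycine cleavage system, had 463, 463, 1212 and 594 against 11206, 1230, 7803 and 8398. In each of these genes the library labelled oe SSC1 r3 was the highest and oe EGD2 r1 the lowest of the HSP12-high end. The libraries between the ends were as low as the HSP12-low libraries for ADE17 (1320 to 1576).

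As whole lists, the phosphate starvation genes had 2 of 15 (13.3%, background 17.2%) with all HSP12-low libraries below and none above. Amino acid synthesis had 6 of 60 (10%) below and 4 (6.67%, background 16.5%) above. Purine and one-carbon synthesis had 8 of 28 (28.6%) below and 5 (17.9%) above. ZPS1, a gene induced by low zinc, had 528, 562, 676 and 508 against 863, 14303, 717 and 764, so that oe EGD2 r1 stood apart from the other HSP12-high libraries, and it was also high in oe LHS1 r1 (11389). Of 8 galactose genes, 2 (25%, background 17.2%) lay below and none above, with a median of -0.64. These were PGM2, which is also in the glycogen list, and GCY1, with differences of -4.10 and -3.39. GAL1, GAL7 and GAL10 overlapped between the ends, and GAL1, galactokinase, had 321, 318, 836 and 237 against 432, 293, 422 and 329.

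**Figure D5:**
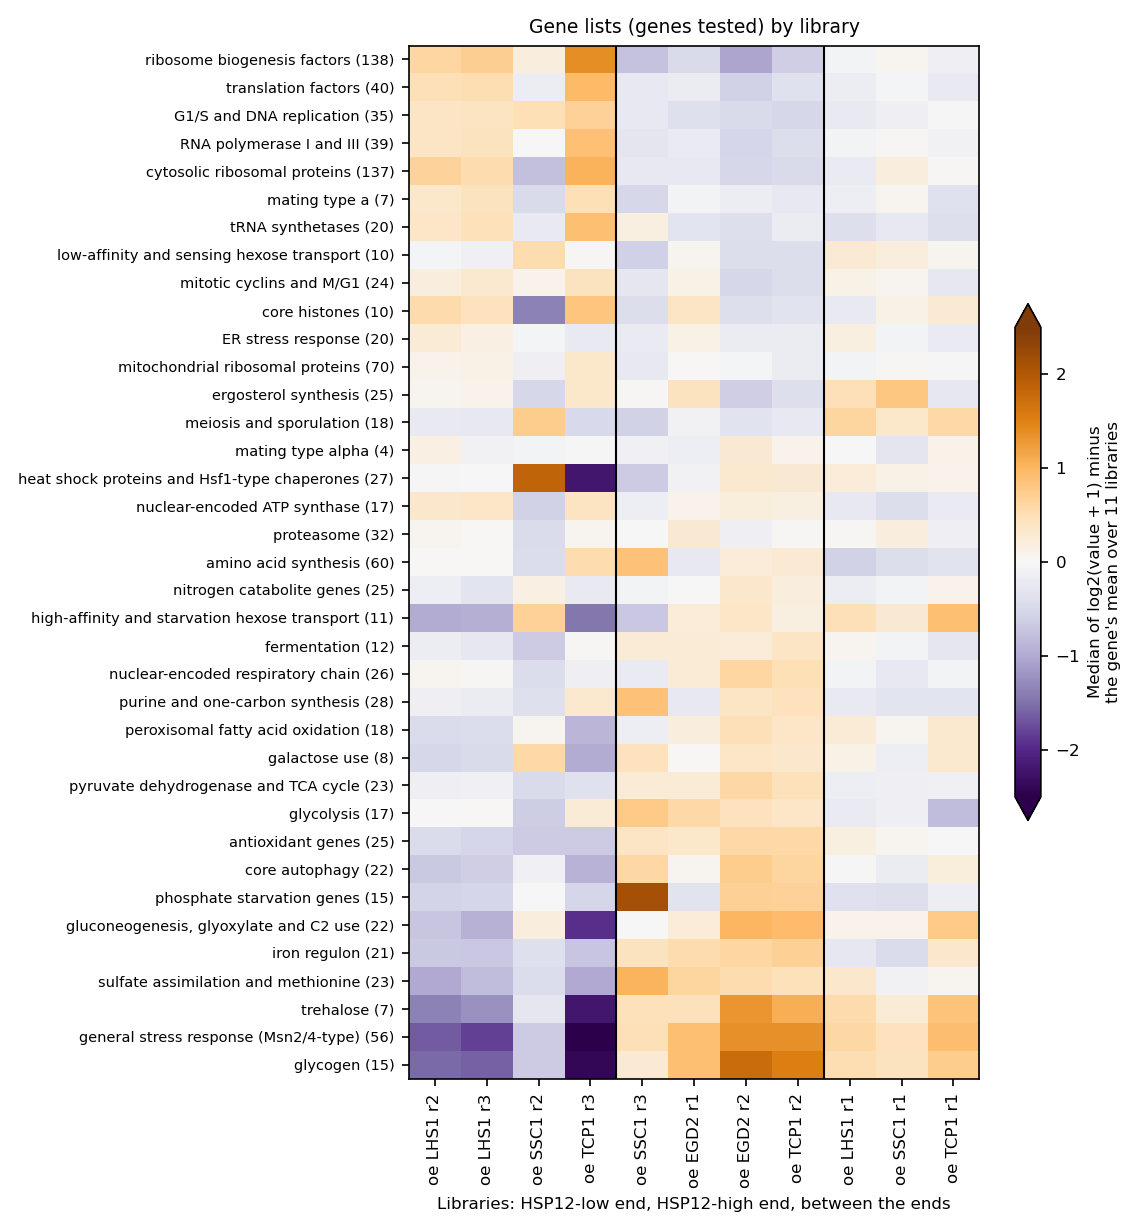
Median of each gene list in each library, as log2(normalised count + 1) minus the gene's mean over the 11 libraries (colour; orange above, purple below); the 37 lists run down the picture with the number of genes tested, ordered by the difference between the ends, and black lines divide the HSP12-low, HSP12-high and intermediate libraries. Ribosome biogenesis (top) and glycogen, general stress and trehalose (bottom) keep their sign across each end, while the heat shock list is at 1.84 in oe SSC1 r2 and -2.20 in oe TCP1 r3.

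The 10 genes with the largest positive difference were all non-coding RNAs. SCR1, the RNA of the signal recognition particle, had 106421, 61290, 92806 and 16421 normalised counts in the HSP12-low libraries, against 428, 3300, 482 and 806 in the HSP12-high libraries. snR190, a small nucleolar RNA, had 3470, 4223, 686 and 1891 against 22.1, 45.4, 50.6 and 50.2. Neither overlapped, and both were at most 4678 (SCR1) and 100 (snR190) in the libraries between the ends. LSR1, the U2 spliceosomal RNA, had 40089, 36457, 28232 and 53611 against 768, 4514, 740 and 945.

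Transfer RNA genes behaved differently from these RNAs in oe TCP1 r3. Their summed normalised counts were 23715, 22681, 18979 and 1492 in the HSP12-low libraries, against 722, 1291, 856 and 778 in the HSP12-high libraries. Thus 3 of the HSP12-low libraries were far above the rest, and oe TCP1 r3 was below the libraries between the ends (1818 to 2989). Of 202 tRNA genes that were compared, 96 had all HSP12-low libraries above (background 16.5%) and none below. The leucine tRNA gene tL(CAA)D, the gene with the largest difference, had 779, 769, 696 and 30.8 against 1.77, 5.95, 0 and 2.79, and since many tRNA genes have identical copies the reads cannot be assigned to 1 locus. How RNA was selected for sequencing is not given in the sources used here beyond mRNA sequencing by a standard protocol, and the part of RNA selection or RNA quality in these values was not tested.

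Protein-coding genes beside tRNA genes were looked at after the largest positive differences had been seen. Of the 20 coding genes with the largest ones, 1 overlaps a tRNA gene and 5 lie past the 3' end of one within 500 bases. Among all 5824 protein-coding genes compared, these numbers were 5 and 192. ATG31, an autophagy gene on chromosome IV (488072 to 488662), had 11307, 11348, 12152 and 462 normalised counts in the HSP12-low libraries, against 372, 379, 455 and 424 in the HSP12-high libraries. It thus followed the tRNA pattern, with oe TCP1 r3 at the level of the HSP12-high end, unlike ATG8. ATG31 starts 134 bases past the 3' end of a tRNA gene on the same strand. Counting did not use strand, so reads from either strand of a coding gene are included. The tRNA gene is shown with its internal B box, to which TFIIIC binds, in capitals (R64, IV:488797-488870, minus strand). The sequence occurs 2 times in the genome:
YNCD0007C: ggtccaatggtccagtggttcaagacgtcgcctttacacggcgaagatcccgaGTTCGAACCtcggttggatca

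Over all protein-coding genes with a neighbouring tRNA gene, 47 of 192 (24.5%) that lie past its 3' end within 500 bases had all HSP12-low libraries above, against 5 of 55 (9.09%) before its 5' end and 15.3% of all protein-coding genes. Beyond such neighbours, the coding genes with the largest positive differences include YHB1, a flavohaemoglobin gene that detoxifies nitric oxide, with 10444, 10617, 4984 and 10186 normalised counts against 951, 1468, 657 and 1158. HO, the endonuclease gene of mating type switching, had 1163, 1246, 1106 and 2810 against 210, 347, 137 and 144, and both genes kept the ends apart.

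In the remaining lists most genes overlapped between the ends. In the proteasome list 2 of 32 genes lay below, none above, and the median was -0.13. Among a-specific mating genes 2 of 7 (28.6%, background 16.5%) lay above (median 0.64). STE6, the a-factor exporter gene, was at 5108, 5818, 4741 and 5580 normalised counts against 3277, 3730, 3537 and 3096. None of 4 alpha-specific genes separated the ends. Of meiosis and sporulation genes 4 of 18 (22.2%, background 16.5%) lay above and 1 below (median 0.14). For mitochondrial ribosomal proteins 18 of 70 (25.7%, background 16.5%) lay above and 2 below, the median was 0.15, and 52 of 70 had a positive mean difference. For fermentation 4 of 12 (33.3%, background 17.2%) lay below and none above, with a median of -0.38. For nitrogen catabolite genes 5 of 25 (20%) lay each way (median -0.22), near the backgrounds of 16.5% above and 17.2% below. For ergosterol synthesis 1 of 25 (4%) lay above and 3 (12%) below (median 0.15). For the ER stress response 3 of 20 (15%) lay below and none above (median 0.25). Among the nitrogen genes, the general amino acid permease gene GAP1 had 3930, 3611, 2671 and 3200 normalised counts against 640, 1957, 683 and 641, whereas UGA1, of GABA breakdown, had 1178, 1160, 1325 and 731 against 4960, 4822, 7347 and 7397. These genes kept the ends apart in opposite directions. The large list members with the smallest range over the 8 libraries were RPN2, a proteasome base subunit gene (5577 to 7189 normalised counts), ATP1, the alpha subunit of ATP synthase (7317 to 10674), and PFK2, a phosphofructokinase subunit gene (9050 to 13298), and in each the ends overlapped.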

How the data were processed

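RNASeq of yeast strains overexpressing LHS1, SSC1, TCP1 (3 libraries each) or EGD2 (2) was re-examined. The authors deposited 1 table of signal per gene, namely read counts divided by DESeq2 size factors. Per the labels and the authors' methods, reads were aligned to sacCer3 with STAR 2.3.0e and counted with HTSeq 0.6.0 without strand, and outlier replicates were removed by PCA. Before this work 4 lines of the file were emptied and are not reported here. Whole reads were recovered from the steps of low values (100% within 0.01 of a whole number). Genes with a mean of at least 5 were kept and log2(value + 1) was used.

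Ends were described without a test, because expression chose them. Members and gene lists were chosen with earlier results of these data known. Strains were compared with limma 3.58.1 (F test, trend, Benjamini-Hochberg adjusted p under 0.05), with edgeR 4.0.16 and DESeq2 1.42.0 on recovered reads as alternatives, in R 4.3.3. These also called 3 genes each. The limma step was tested on simulated counts with a strain effect, uniform dispersion and no axis shared across strains. Its power on these libraries was therefore not tested. P-values measure the spread between these cultures. Python 3.11.15 was used for the remaining steps, including the exact permutation test.

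Genes named were the 10 largest differences in each direction without overlap (mean of at least 50), up to 4 per list, the plasmid genes, the 6 with the largest range within each end, 5 with opposite differences within oe SSC1 and oe TCP1 (over 2), and 3 stable list members. HIP1, LSR1, YHB1, HO, GAL1 and the tRNA neighbours were chosen after their values were seen. Of 7122 gene identifiers, 6164 matched RefSeq's R64 annotation, the same assembly as sacCer3, from which all sequences were read. Transfer RNA names were not matched and carry no coordinates. Same-numbered libraries of different strains correlated at -0.58 to 0.64, with 8 of 15 pairs over 0.1, so the numbers do not pair them.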

Additional observations from a re-analysis of the deposited data

Results flagged for a closer look

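The lists given here are those whose medians had opposite signs in the 2 strains with a library at each end and lay at least 1 apart on the log2 scale, with 1 library pair per strain. The difference between the strains was not tested. For heat shock and Hsf1-type chaperone genes the median difference was 2.79 within oe SSC1 and -2.45 within oe TCP1, 5.24 apart on the log2 scale. For high-affinity and starvation hexose transporters it was 1.36 and -1.84 (3.20 apart), for gluconeogenesis, glyoxylate and C2 use 0.38 and -2.81 (3.19 apart), for meiosis and sporulation 1.37 and -0.22 (1.60 apart) and for peroxisomal fatty acid oxidation 0.087 and -1.10 (1.19 apart). For cytosolic ribosomal proteins it was -0.53 and 1.54 (a difference of -2.07), for core histones -0.76 and 1.12 (-1.88), for amino acid synthesis -1.37 and 0.39 (-1.76), for glycolysis -1.45 and 0.061 (-1.51), for tRNA synthetases -0.30 and 1.13 (-1.43), for translation factors -0.0012 and 1.36 (-1.36) and for ergosterol synthesis -0.53 and 0.81 (-1.33).

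Single genes of this kind were picked for opposite differences, so their values are a description. BTN2 differed by 5.56 within oe SSC1 and -3.38 within oe TCP1 (8.94 apart), HSP42 by 3.31 and -4.71 (8.03 apart), YOL150C by 4.45 and -3.28 (7.73 apart), HSP82 by 3.12 and -4.12 (7.23 apart) and APJ1 by 3.46 and -3.36 (6.82 apart).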

How the results depend on the processing

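With another scaling (TMM), a pseudocount of 10, a minimum mean of 50 or no minimum, each count of genes that did not overlap stayed within 1.5 times its reported value. TMM shifted the median gene from 0.03 to -0.03 and gave 958 genes above and 1263 below. Leaving out 1 library in turn gave 1118 to 1658 genes above, the most without the library labelled oe SSC1 r2, and 1154 to 1671 below. With the oe SSC1 and oe TCP1 libraries alone, 2079 genes were higher in both pairs and 2030 lower in both. This counts only a shared sign of the within-strain differences (62.3% of genes) and is not comparable with the counts without overlap.

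List medians ranged, with 1 library left out, from 1.24 to 1.64 for ribosome biogenesis, 0.50 to 1.103 for ribosomal proteins, -2.99 to -2.44 for general stress, -0.55 to 0.66 for heat shock, -1.55 to -1.30 for sulfur, -1.45 to -1.14 for iron (the last without oe EGD2 r1), -1.70 to -1.06 for gluconeogenesis and -0.92 to -0.40 for glycolysis. Within oe SSC1 and within oe TCP1 they were 0.93 and 1.95 (ribosome biogenesis), -0.53 and 1.54 (ribosomal proteins), -1.13 and -1.15 (sulfur), -1.45 and 0.061 (glycolysis), 0.38 and -2.81 (gluconeogenesis), -1.05 and -4.01 (general stress), and 2.79 and -2.45 (heat shock), and within oe SSC1 -1.06 (iron). Of 307 alternative values of the list medians, 54 moved by at least the SD between libraries within the ends. A change of sign was counted only for lists with at least 50% of genes on 1 side without overlap. Most of the 37 lists had fewer. With TMM, none of the lists counted changed sign. Neither did any gene that kept the ends apart among the 84 named ones. Such a gene, or a list made mostly of such genes, cannot change sign with a pseudocount of 10 or 1 library left out. These settings were therefore no check of the sign. Lists and genes that overlapped were not counted, and the heat shock median took both signs.

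The first component held 52.5% to 65.6% of variance with 1 library left out. A replicate block in the strain comparison called 3 genes, as did each other alternative, with 47 genes at an unadjusted p under 0.05, and edgeR and DESeq2 had 137 and 283. The ends differ in depth, harvest and library selection are unknown for each library, and every difference between ends rests on 4 libraries per end chosen by expression. The oe LHS1 members were all at the HSP12-low end and the oe EGD2 members all at the HSP12-high end. For these libraries strain and end cannot be told apart.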
